A study of Mus musculus with 6 samples.

Results

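The 10 genes described here encode the NF-κB transcription factor subunits and the I-κB proteins that bind them in mouse CD4+ T cells. They are *Nfkb1*, *Nfkb2*, *Rel*, *Rela* and *Relb* (the Rel family subunits), *Nfkbia* and *Nfkbie* (classical I-κB proteins), and *Nfkbid*, *Nfkbiz* and *Bcl3* (nuclear I-κB proteins). They were chosen by symbol, as 10 of the 24223 genes counted, and all 10 were among the 13607 genes with enough counts to be tested. RNA-Seq was compared among 3 cell types with 2 replicates each, which the study describes as independent biological replicates. Naive cells were CD4+CD44- T cells taken from pooled lymph nodes and spleens of C57BL/6 mice, 1 to 2 months old, by a magnetic CD4+CD62L+ isolation kit, and were not activated. Th17 and Th1 cells were such cells after 5 days in culture with bound anti-CD3 and soluble anti-CD28, or with CD3/CD28 activator beads. Th17 cultures also received anti-IL-4, anti-IFN-γ, TGF-β, IL-6, IL-1β and IL-23, and Th1 cultures received anti-IL-4, IL-12 and IL-2. Activation, culture and polarization were applied together, so their parts in any difference from Naive cannot be told apart.

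NF-κB factors are dimers of Rel family subunits. In resting cells, classical I-κB proteins hold them in the cytoplasm, and signals such as those from the T cell receptor and CD28 activate the I-κB kinase (IKK) complex, which marks these inhibitors for degradation and lets the dimers enter the nucleus. In the non-canonical route, used by several receptors of the TNF receptor family, the *Nfkb2* precursor is processed and pairs with *Relb*. Nuclear I-κB proteins act on DNA-bound dimers, and many genes of the system are themselves NF-κB targets.

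Total counts ranged from 17742158 to 69080017 per library, and in each cell type replicate 1 was the deeper library. Values are given as CPM, the counts of a gene set to a common library total and scaled by TMM factors, and the lowest count of any of the 10 genes in a library was 124. The 6 general T cell genes found in the files, such as *Cd3e* and *Cd4*, were above 10 CPM in every library and summed to between 2405 and 3757 CPM. The summed level of 7 Th17 genes such as *Il17a* and *Il17f* was 1516 and 1974 CPM in Th17 and between 12.9 and 22.2 CPM in the other 4 libraries. That of 7 Th1 genes such as *Tbx21* and *Ifng* was 1898 and 1527 CPM in Th1, 549 and 472 CPM in Th17, and 179 and 169 CPM in Naive. *Gzmb* alone made up most of the Th17 sums of this list (379.4 and 332.9 CPM). It was higher in both Th17 libraries than in both Naive libraries, as were *Ifng*, *Il12rb2* and *Stat4*. *Tbx21*, *Cxcr3* and *Nkg7* were lower, with *Tbx21* at 4.575 CPM or less in Th17 against at least 20.85 CPM in Naive. The 7 naive T cell genes did not separate the cell types, with sums from 3254 to 4988 CPM in Naive and from 2760 to 5358 CPM in the cultured cells. Of 12 neutrophil genes, 10 were above 10 CPM in both Th17 libraries, where they summed to 3099 and 2947 CPM, and none was at 0. The same genes summed to 376 and 222 CPM in Naive and to 31.9 and 43.9 CPM in Th1. They did not all move together. Most of the Naive sums came from *Mpo*, at 250.7 and 159.3 CPM, which was lower in Th17, at 68.1 and 58.7 CPM. *Elane* and *Prtn3* overlapped between Naive and Th17. All others of the 12 were higher in both Th17 libraries than in both Naive libraries. The 12 macrophage and dendritic cell genes found in the files summed to 244 and 849 CPM in Th17 with none at 0, to 39.8 and 19.96 CPM in Naive, and to 11.5 and 13.2 CPM in Th1. Most of the Th17 sums came from *Lyz2* alone, at 222.6 and 762.2 CPM. Of these 12 genes, 1 was above 10 CPM in Th17 replicate 1 and 4 were in replicate 2. The sums of 8 mast cell and basophil genes were 160.3 and 370.4 CPM in Th17, beside 156 and 53.9 CPM in the Naive libraries and 74.4 and 50.5 CPM in the Th1 libraries. Above 10 CPM were 5 and 8 of them in Th17 and 2 in each Naive library. The 2 in Naive were *Kit* (99.8 and 29.6 CPM) and *Gata2* (32.6 and 14.2 CPM). Erythroid genes reached 861 and 142 CPM in Naive and at most 2.38 CPM elsewhere, with 4 or 5 of the 9 at 0 in every library. The 7 B cell genes in the files stayed between 4.43 and 21.3 CPM, and the 7 genes of CD8 T and NK cells between 32.8 and 65.9 CPM.

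RefSeq promoter windows, from 250 bases before to 50 bases after a start site on GRCm38.p6, were given for 7 of the 10 genes, in 11 entries. No entry was given for *Nfkb1*, *Relb* and *Nfkbiz*. The κB consensus, the motif of 10 bases that NF-κB dimers bind, was searched on both strands. It was found in 8 of the 11 entries, which belong to 6 of the 7 genes, while 4.51% of all 32851 mouse promoter windows of this length held it. Windows 2 and 3 of *Nfkb2* overlap and share the same GGGACTTTCC site, the only match in window 3, so the 8 entries are not all separate sites. The windows of *Bcl3*, *Nfkbia* and *Nfkb2* are shown because they had the 2 highest fold changes of the 10 genes in each comparison with Naive. Capitals mark the κB matches, and the sequences run from 5′ to 3′ on the strand of the gene.
Bcl3: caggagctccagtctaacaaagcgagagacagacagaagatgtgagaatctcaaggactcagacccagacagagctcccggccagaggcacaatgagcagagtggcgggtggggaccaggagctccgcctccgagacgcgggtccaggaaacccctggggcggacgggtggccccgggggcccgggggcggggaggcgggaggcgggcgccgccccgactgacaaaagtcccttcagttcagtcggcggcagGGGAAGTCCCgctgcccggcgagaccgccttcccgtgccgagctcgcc
Nfkbia: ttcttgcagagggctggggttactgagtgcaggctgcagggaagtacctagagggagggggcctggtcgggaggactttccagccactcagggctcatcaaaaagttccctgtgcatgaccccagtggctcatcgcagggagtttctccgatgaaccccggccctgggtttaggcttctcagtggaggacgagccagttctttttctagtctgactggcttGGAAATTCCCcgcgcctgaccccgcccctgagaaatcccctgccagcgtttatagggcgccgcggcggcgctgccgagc
Nfkb2: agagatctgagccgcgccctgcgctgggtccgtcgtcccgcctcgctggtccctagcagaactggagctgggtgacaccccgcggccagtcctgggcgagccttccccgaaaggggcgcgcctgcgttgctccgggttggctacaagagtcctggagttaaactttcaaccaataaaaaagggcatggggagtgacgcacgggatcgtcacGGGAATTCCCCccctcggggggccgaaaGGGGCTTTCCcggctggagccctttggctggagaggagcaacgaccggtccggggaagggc
The *Bcl3* window lies at chr7:19822706-19823005 on the minus strand, with its match starting at base 2 after the start site. The *Nfkbia* window lies at chr12:55492598-55492897 on the minus strand, with its match at base -29. The *Nfkb2* window, 1 of 3 for this gene, lies at chr19:46304487-46304786 on the plus strand and holds overlapping matches on the 2 strands from base -39 and -38 and another from base -11. *Rel* (at -92 and -91, overlapping), *Nfkbie* (at -106) and 1 of the 3 *Nfkbid* windows (at -226 and -181) also held matches, and the *Rela* window held none. The AP-1 motif TGANTCA was found in the *Nfkbie* window and in another *Nfkb2* window, and in 7.81% of all windows. These are matches of letters, and binding was not measured.

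Of the 10 genes, *Bcl3* had the largest fold change from Naive in each helper cell type. Mean *Bcl3* was 28.0 ± 6.73 CPM (SD, n = 2) in Naive cells, against 141 ± 44.5 CPM in Th17 cells and 142 ± 68.6 CPM in Th1 cells. With differentially expressed genes (DEGs) called at an adjusted p-value under 0.01 by edgeR's quasi-likelihood test with an absolute log2 fold change above 1, *Bcl3* was the 1 gene of the 10 up-regulated in Th17 and the 1 gene of the 10 up-regulated in Th1, each against Naive. None of the 10 was called lower in either comparison, and none was called in either direction between Th1 and Th17. Among all genes tested, 4.01% were called higher and 1.43% lower in Th17 than in Naive, 4.64% higher and 2.81% lower in Th1 than in Naive, and 2.70% higher and 2.83% lower in Th1 than in Th17. At an unadjusted p under 0.05 in the edgeR fit, 3 of the 10 genes were higher and 1 lower in Th17 than in Naive, 2 higher and 1 lower in Th1 than in Naive, and 2 higher and 0 lower in Th1 than in Th17. Of all genes tested, 17.2% were higher and 16.1% lower at this limit in Th17 than in Naive, 15.7% and 14.3% in Th1 than in Naive, and 17.2% and 16.6% in Th1 than in Th17. DESeq2 at the same thresholds called 2 genes higher in Th17 (*Bcl3* and *Nfkbia*), 2 higher in Th1 (*Bcl3* and *Nfkb2*) and 1 lower in Th1 (*Nfkbid*) against Naive, and none between Th1 and Th17. It called more of all genes, with 7.69% higher and 4.92% lower in Th17 than in Naive, 8.16% and 5.93% in Th1 than in Naive, and 6.77% and 6.32% in Th1 than in Th17. The 2 comparisons with Naive share the Naive libraries. The median log2 fold change of the 10 genes was 0.09 in Th17 and 0.57 in Th1 against Naive, and 0.10 in Th1 against Th17, beside medians between -0.03 and -0.02 over all genes tested.

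**Figure D1:**
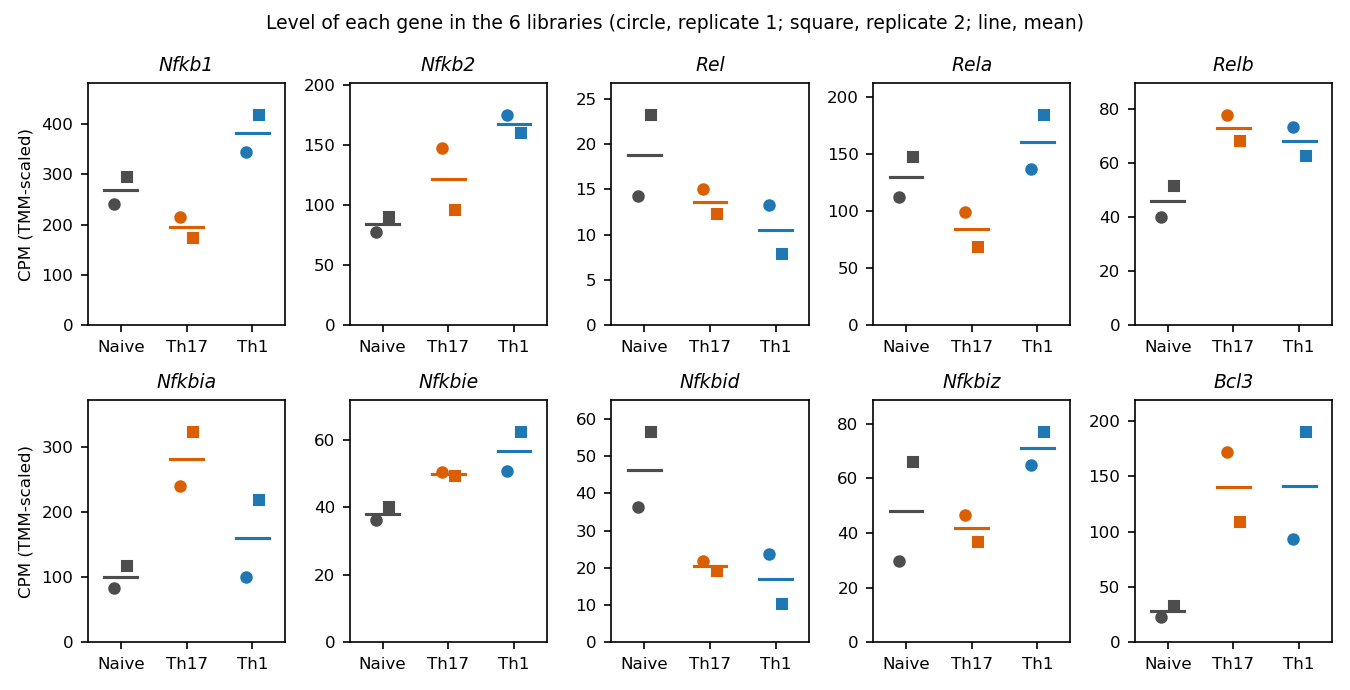
Level of each of the 10 genes in the 6 libraries in TMM-scaled CPM (y axis, linear and starting at 0, with its own range in each panel), by cell type on the x axis, with replicate 1 as a circle, replicate 2 as a square and the mean as a line. *Bcl3* lay at 23.3 and 32.8 CPM in Naive and at 93.3 CPM or more in the 4 libraries of cultured cells, while *Nfkb1* and *Rela* were lowest in Th17.

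The 5 subunit genes had no DEG in any comparison by edgeR. *Nfkb1* (chr3:135584655-135691547, minus strand, GRCm38), which encodes the precursor of the short subunit of the classical dimer, had 241 and 295 CPM in Naive, 214 and 174 CPM in Th17, and 344 and 418.5 CPM in Th1. The 3 cell types did not overlap, with Th17 lowest and Th1 highest. Its log2 fold change was -0.47 (SE 0.28) in Th17 against Naive, 0.51 (SE 0.28) in Th1 against Naive and 0.97 (SE 0.28, edgeR adjusted p = 0.0424) in Th1 against Th17. *Rela* (chr19:5637483-5648130, plus strand), the subunit that carries the activation domain of the classical dimer, had 113 and 147 CPM in Naive, 98.9 and 68.8 CPM in Th17, and 137 and 184 CPM in Th1. Both Th17 libraries lay below all others, and Naive and Th1 overlapped. *Rela* differed by 0.94 (SE 0.30) on the log2 scale between Th1 and Th17, with an edgeR adjusted p of 0.0581. The log2 profiles of *Nfkb1* and *Rela* were the most alike of all pairs among the 10 genes, differing by a root mean square of 0.12 over the 6 libraries after each gene was centred on its mean.

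*Nfkb2* (chr19:46304320-46312385, plus strand) and *Relb* (chr7:19606217-19629438, minus strand), which together form the dimer of the non-canonical route, were both higher than in Naive in all 4 libraries of cultured cells. *Nfkb2* had 77.9 and 90.1 CPM in Naive, 148 and 95.7 CPM in Th17, and 176 and 160.0 CPM in Th1. The 3 cell types did not overlap and ran in the order Naive, Th17, Th1, although Th17 replicate 2 lay close to the higher Naive library. The log2 fold change of *Nfkb2* was 0.54 (SE 0.28) in Th17 and 1.00 (SE 0.29, edgeR adjusted p = 0.04) in Th1 against Naive, and DESeq2 put the latter at 1.01 (adjusted p = 0.00859), just past both thresholds, a call that it lost with the replicate number as a block (0.999, adjusted p = 0.0203). *Relb* had 40.0 and 51.6 CPM in Naive, 77.9 and 68.0 CPM in Th17, and 73.5 and 62.8 CPM in Th1. Th17 and Th1 overlapped, with a difference of -0.10 on the log2 scale and a 95% interval from -0.61 to 0.41. Against Naive, the log2 fold change of *Relb* was 0.67 (SE 0.26, edgeR adjusted p = 0.106) in Th17 and 0.58 (SE 0.26, edgeR adjusted p = 0.174) in Th1. Exons of *Nfkb2* overlap those of genes on the opposite strand, AC114539.1 over 531 bases and *Psd* over 299 bases, and the reads of the overlaps cannot be told apart without strand. *Psd* itself had between 8.83 and 15.8 CPM.

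*Rel* (chr11:23736847-23770970, minus strand), which encodes c-Rel, a subunit known for its part in T cell activation, was the lowest of the 5 subunits in every library, per length as well as in CPM. It had 14.3 and 23.3 CPM in Naive, 15.0 and 12.3 CPM in Th17, and 13.2 and 7.84 CPM in Th1. Both Th1 libraries lay below both Naive libraries, and Th17 overlapped with each. Its log2 fold change was -0.45 (SE 0.38) in Th17 and -0.82 (SE 0.39) in Th1 against Naive, with edgeR adjusted p-values of 0.434 and 0.188.

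To compare levels between subunits, counts were divided by gene length and expressed as a share of the 5 subunits in each library. With the union of all annotated exons as the length, *Rela* took 42.7 and 44.1% in the Naive libraries, 30.9 and 29.1% in the Th17 libraries, and 33.7 and 40.9% in the Th1 libraries. *Nfkb2* took 19.8 and 18.2% in the Naive libraries, 30.9 and 27.2% in the Th17 libraries, and 29.0 and 23.8% in the Th1 libraries. *Relb* took 12.0 and 12.3% in the Naive libraries, 19.2 and 22.8% in the Th17 libraries, and 14.3 and 11.0% in the Th1 libraries. The share of *Rela* was thus largest in Naive and that of *Relb* largest in Th17, with no overlap of libraries in either case, while for *Relb* Th1 overlapped with Naive. *Rel* took between 0.715 and 2.88%, with its smallest shares in the 2 Th1 libraries. The share of *Nfkb1* depended on the length used, because its annotated exons span 12061 bases and its longest transcript 4149 bases. It took between 17.0 and 23.6% by the first and between 33.9 and 43.8% by the second, so that *Rela* led it in every library by the first and followed it in every library by the second. By either length *Nfkb1* had its smallest shares in the 2 Th17 libraries.

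**Figure D2:**
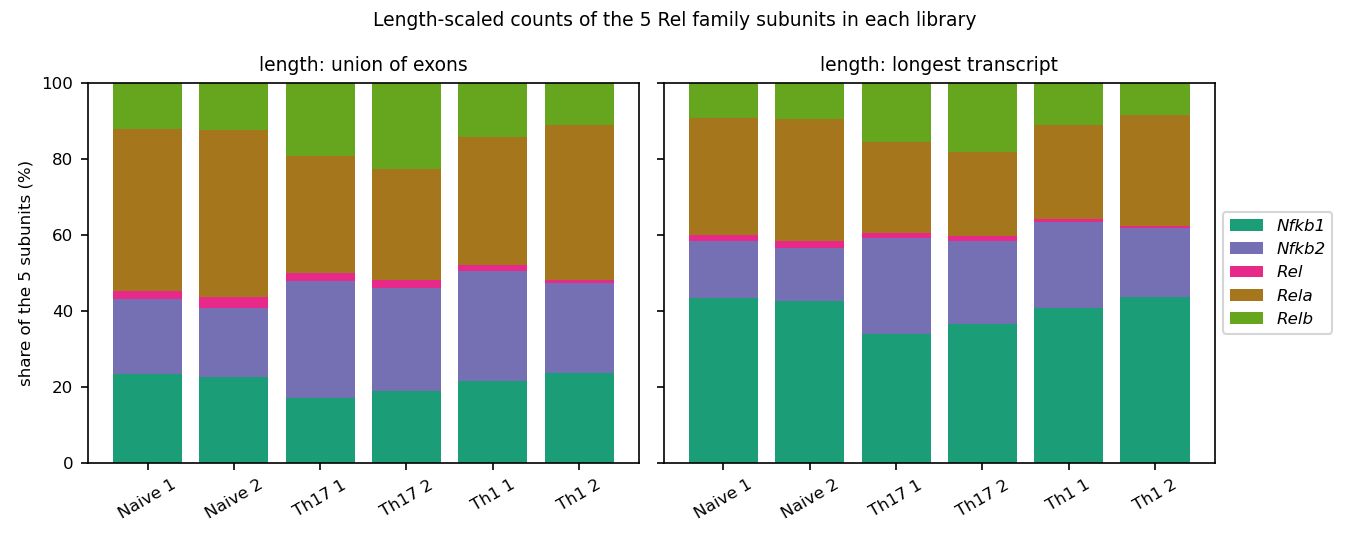
Share of each of the 5 Rel family subunits in their length-scaled counts (y axis, percent, stacked to 100) in each of the 6 libraries, with length taken as the union of exons (left) or the longest transcript (right). The *Relb* share by exon union was 19.2 and 22.8% in Th17 and at most 14.3% in the other libraries, and the change of length moved the *Nfkb1* share from 23.3 to 43.4% in Naive replicate 1.

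Ratios of raw counts within a library need no scaling between libraries, and the pairs were chosen after their values were seen. *Nfkb2* had 0.323 and 0.305 counts per count of *Nfkb1* in the Naive libraries, 0.691 and 0.549 in the Th17 libraries, and 0.510 and 0.382 in the Th1 libraries. *Relb* had 0.355 and 0.352 counts per count of *Rela* in the Naive libraries, 0.788 and 0.989 in the Th17 libraries, and 0.537 and 0.341 in the Th1 libraries. Both ratios of a non-canonical to a classical subunit were highest in Th17, without overlap. *Rel* had 0.127 and 0.159 counts per count of *Rela* in the Naive libraries, 0.152 and 0.179 in the Th17 libraries, and 0.0968 and 0.0425 in the Th1 libraries, where both libraries were lowest. With 2 libraries a group, an exact permutation test cannot give a p below 0.333, so no test of these ratios was made.

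Of the classical inhibitors, *Nfkbia* (chr12:55489410-55492647, minus strand) was highest in Th17. *Nfkbia* encodes I-κBα, which NF-κB itself induces and which ends its own activation. It had 83.5 and 118 CPM in Naive, 240.5 and 323 CPM in Th17, and 100.1 and 219 CPM in Th1. Both Th17 libraries lay above all others, and the 2 Th1 libraries lay apart, with replicate 1 among the Naive values. Its log2 fold change in Th17 against Naive was 1.49 (SE 0.39), which missed the threshold in edgeR (adjusted p = 0.0307) and passed it in DESeq2 (1.497, adjusted p = 0.00465). It was also called by edgeR without Th1 replicate 1 (1.53, adjusted p = 0.00882), a library that does not enter this difference but does enter the shared estimate of the spread. It was 1.26 without Th17 replicate 2 (edgeR adjusted p = 0.185) and 1.26 without Naive replicate 1 (edgeR adjusted p = 0.1). In Th1 against Naive it was 0.67 (SE 0.38, edgeR adjusted p = 0.286), and -0.005 without Th1 replicate 2. Per kilobase of annotated exon, *Nfkbia* was the highest of the 10 genes in every library, at 51.9 and 73.1 CPM per kilobase in the Naive libraries, 149 and 201 in the Th17 libraries, and 62.2 and 136 in the Th1 libraries. With the longest transcript as the length, *Nfkb1* exceeded it in Naive replicate 1 (58.1 against 52.9 CPM per kilobase) and Th1 replicate 1 (83.0 against 63.4). Its counts per count of *Rela*, the subunit it binds, were 0.742 and 0.801 in the Naive libraries, 2.43 and 4.70 in the Th17 libraries, and 0.732 and 1.19 in the Th1 libraries. The Th17 libraries also had the high sums of neutrophil, macrophage and dendritic cell genes given above, and the part of these cells in the *Nfkbia* level was not tested. In bulk RNA, a change in the number of cells that express a gene and a change in its RNA per cell cannot be told apart.

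*Nfkbie* (chr17:45555703-45563169, plus strand), which encodes I-κBε, had 36.3 and 40.0 CPM in Naive, 50.4 and 49.2 CPM in Th17, and 50.8 and 62.3 CPM in Th1. Every cultured library was above both Naive libraries. The differences were small, with log2 fold changes of 0.39 (SE 0.26, edgeR adjusted p = 0.316) in Th17 and 0.57 (SE 0.26, edgeR adjusted p = 0.171) in Th1 against Naive. The third inhibitor of this class, *Nfkbib*, which was listed with the pathway genes, was called in no comparison and had log2 fold changes of -0.20, 0.27 and 0.47 in the order Th17 against Naive, Th1 against Naive and Th1 against Th17.

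**Figure D3:**
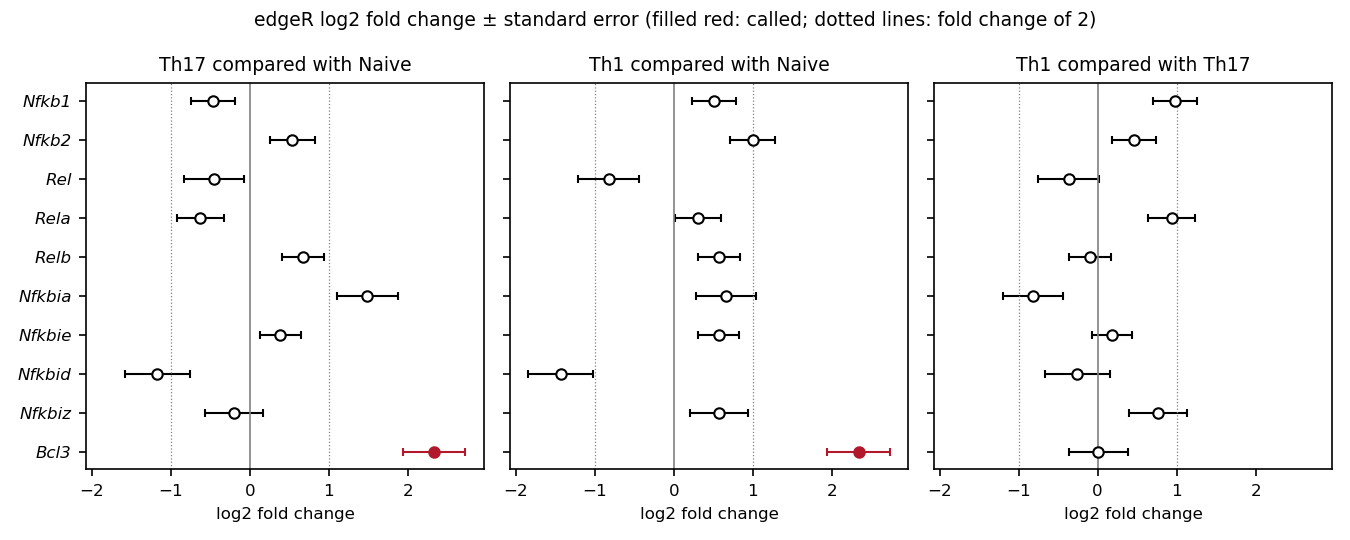
Log2 fold change (x axis) of each of the 10 genes (y axis) in the 3 comparisons, from edgeR, with bars of 1 standard error, genes called in filled red and dotted lines at a fold change of 2. *Bcl3* at 2.33 in Th17 and 2.34 in Th1 against Naive was the 1 gene called, and *Nfkbia* at 1.49 in Th17 and *Nfkbid* at -1.43 in Th1 came next.

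Of the 3 nuclear I-κB genes, edgeR called *Bcl3* alone, and DESeq2 called *Bcl3* and *Nfkbid*. *Bcl3* (chr7:19808462-19822770, minus strand), whose protein binds dimers of the *Nfkb1* and *Nfkb2* products on DNA, had 23.3 and 32.8 CPM in Naive, 172 and 109 CPM in Th17, and 93.3 and 190.3 CPM in Th1. All 4 cultured libraries lay above both Naive libraries, and Th17 and Th1 overlapped, with the order of the replicates turned around. *Bcl3* rose by 2.33 (SE 0.40, edgeR adjusted p = 0.00448) in Th17 and by 2.34 (SE 0.40, edgeR adjusted p = 0.00361) in Th1 on the log2 scale. Between Th1 and Th17 the log2 fold change was 0.01, with a 95% interval from -0.73 to 0.75, and it was -0.24 with library size alone as the scaling, so its direction was not resolved. The call in Th17 was lost without Naive replicate 1 (2.10, edgeR adjusted p = 0.0234) and without Th17 replicate 1 (1.96, edgeR adjusted p = 0.0259). That in Th1 was lost without Naive replicate 1 (2.11, edgeR adjusted p = 0.0218), without Th1 replicate 2 (1.74, edgeR adjusted p = 0.0143) and with library size alone as the scaling (2.07, edgeR adjusted p = 0.0111). Over all alternatives tried, the fold change stayed between 1.96 and 2.62 in Th17 and between 1.74 and 2.80 in Th1. The neutrophil genes summed to 3099 and 2947 CPM in Th17 and to at most 43.9 CPM in Th1, the macrophage and dendritic cell genes to 244 and 849 CPM and to at most 13.2 CPM, and their part in the *Bcl3* level was not tested. An annotated antisense gene, *Gm16175*, overlaps 161 bases of the *Bcl3* exons, or 6.51% of them, and such reads cannot be told apart without strand.

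*Nfkbid* (chr7:30421732-30428746, plus strand), which encodes I-κBNS, was lowest in the cultured cells. It had 36.3 and 56.6 CPM in Naive, 21.9 and 19.1 CPM in Th17, and 23.9 and 10.3 CPM in Th1. All 4 cultured libraries lay below both Naive libraries, and Th17 and Th1 overlapped. Its log2 fold change was -1.17 (SE 0.41, edgeR adjusted p = 0.0782) in Th17 and -1.43 (SE 0.41, edgeR adjusted p = 0.0415) in Th1 against Naive. DESeq2 called the latter (-1.43, adjusted p = 0.00974), as did edgeR without Th1 replicate 1 (-2.13, adjusted p = 0.00912). It was -0.96 without Th1 replicate 2 (edgeR adjusted p = 0.156) and -1.07 without Naive replicate 2 (edgeR adjusted p = 0.169). *Bcl3* and *Nfkbid*, both on chromosome 7, had the least alike profiles of all pairs among the 10 genes (root mean square difference 1.84). Within a library, *Bcl3* had 0.642 and 0.580 counts per count of *Nfkbid* in the Naive libraries, 7.84 and 5.71 in the Th17 libraries, and 3.91 and 18.5 in the Th1 libraries. The ratio was thus below 1 in both Naive libraries and above 3 in all 4 cultured libraries.

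*Nfkbiz* (chr16:55811375-55838899, minus strand) encodes I-κBζ, which is known as a factor for Th17 development. It had 29.9 and 66.01 CPM in Naive, 46.8 and 36.6 CPM in Th17, and 65.0 and 77.0 CPM in Th1. Both Th17 libraries lay between the 2 Naive libraries, and the Naive replicates differed by 2.21 times. The log2 fold change in Th17 against Naive was -0.20 (SE 0.36, edgeR adjusted p = 0.732) and turned to 0.48 without Naive replicate 2. In Th1 against Th17 it was 0.77 (SE 0.37, edgeR adjusted p = 0.171), with both Th1 libraries above both Th17 libraries.

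**Figure D4:**
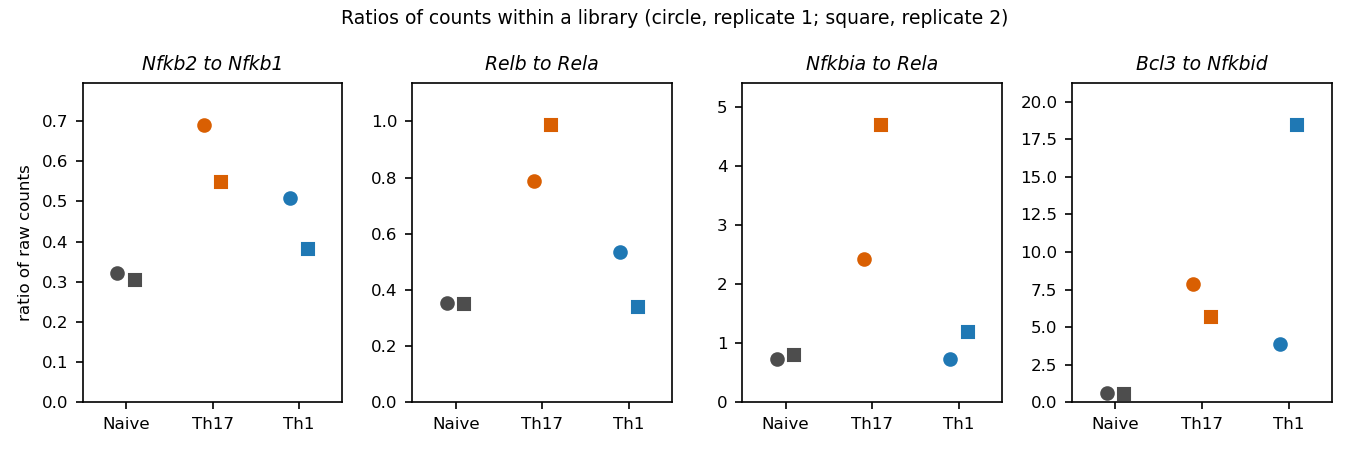
Ratio of raw counts of one gene to another within a library (y axis, linear, starting at 0) for 4 pairs, by cell type on the x axis, with replicate 1 as a circle and replicate 2 as a square. *Nfkb2* to *Nfkb1*, *Relb* to *Rela* and *Nfkbia* to *Rela* were highest in the 2 Th17 libraries, and *Bcl3* to *Nfkbid* was 0.642 or less in Naive and 3.91 or more in the cultured cells.

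The replicates set how far these values can be read. All 10 genes were higher in Naive replicate 2 than in replicate 1, by 1.10 times for *Nfkbie* up to 2.21 times for *Nfkbiz*. How many of all genes tested were higher in replicate 2 than in replicate 1 was not counted. This is therefore not read as a trait of the 10 genes. In the same libraries, the 7 naive T cell genes summed to 4988 and 3254 CPM and the 9 erythroid genes to 142 and 861 CPM, and the part of these in the difference was not tested. Libraries of 2 groups of 2 often do not overlap, so this is no test by itself. Against Naive, 5 of the 10 genes in Th17 had both libraries above both Naive libraries and 3 had both below, where 32.4% and 33.1% of all genes tested did. In Th1, 5 lay above and 2 below Naive, beside 27.6% and 28.4% of all genes. Between Th1 and Th17, 5 lay above and 1 below, beside 31.5% and 35.1% of all genes.

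The genes around these factors were read from 6 lists of 57 genes in all, each of which was tested. By edgeR, 7 were called higher and 0 lower in Th17 than in Naive, 7 higher and 1 lower in Th1 than in Naive, and 5 higher and 6 lower in Th1 than in Th17. Of all genes tested, edgeR called 4.01% higher and 1.43% lower in Th17 and 4.64% and 2.81% in Th1, each against Naive. In Th1 against Th17 it called 2.70% and 2.83%. The DESeq2 shares in the same order were 7.69% and 4.92%, 8.16% and 5.93%, and 6.77% and 6.32%. These shares stand beside the counts called in every list below. The 5 genes of the IKK complex and its related kinases, which phosphorylate I-κB proteins, gave no call in any comparison by edgeR or DESeq2. At an unadjusted p under 0.05 in edgeR, 1 of them was lower in Th1 than in Naive, 1 was higher in Th1 than in Th17, and none passed between Th17 and Naive. The 10 genes of the route from the T cell receptor to IKK, such as *Bcl10* and *Malt1*, gave no call by edgeR. In that list 1 gene was higher and 2 lower in Th17, and 2 higher in Th1, against Naive at an unadjusted p under 0.05, and 3 were higher in Th1 than in Th17, while DESeq2 called 1 gene higher in each comparison of Th1. The shares of all genes at this unadjusted limit, between 14.3% and 17.2% in each direction, are those given above. Leaving out any 1 of the 4 libraries compared left fewer than the 7 pathway genes called higher in Th17 against Naive. In Th1 against Th17 it left fewer than the 5 called higher and fewer than the 6 called lower. Such a fit leaves 1 library in a group, and fewer of all genes tested were called in these directions too.

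Of the 12 genes of the non-canonical route, edgeR called 1 higher in Th17 and 3 higher in Th1 against Naive and 3 higher in Th1 than in Th17, and none lower. DESeq2 called 2, 4 and 3 higher in these comparisons and none lower. The 3 called by edgeR were the same in both comparisons of Th1, and all encode receptors of the TNF receptor family. *Tnfrsf4*, which encodes the costimulatory receptor OX40, had 23.0 and 27.9 CPM in Naive, 49.2 and 36.6 CPM in Th17, and 139.7 and 138 CPM in Th1, and was higher in Th1 by 2.45 (SE 0.28, edgeR adjusted p = 0.000459) against Naive and by 1.69 (SE 0.27, edgeR adjusted p = 0.00343) against Th17 on the log2 scale. *Tnfrsf18*, which encodes GITR, had log2 fold changes of 2.14 and 1.79 in the same comparisons, and *Tnfrsf1b*, which encodes a receptor for TNF, of 1.96 and 1.73. *Tnfrsf9*, a further costimulatory receptor, was higher in Th17 than in Naive by 1.44 (SE 0.26, edgeR adjusted p = 0.00607), and its 1.08 in Th1 was not called (edgeR adjusted p = 0.0185).

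Of the 11 negative regulators of the pathway, edgeR called 1, *Tnip3*, which was higher in Th17 than in Naive and lower in Th1 than in Th17. DESeq2 called 1 higher in Th17 than in Naive, none in Th1 against Naive, and 2 higher and 1 lower in Th1 than in Th17. *Tnip3*, which encodes a partner of the ubiquitin-editing enzyme A20, had 0.602 and 0.198 CPM in Naive, 12.5 and 13.8 CPM in Th17, and 0.944 and 0.695 CPM in Th1. It was higher in both Th17 libraries than in all others, with a log2 fold change of 4.90 (SE 0.58, edgeR adjusted p = 0.000691) against Naive and of -3.96 in Th1 against Th17. The Naive values rest on few counts, down to 4 in replicate 2. The part of the neutrophil and macrophage genes that were high in the same Th17 libraries was not tested. *Tnfaip3*, which encodes A20, had 63.7 and 121 CPM in Naive, 99.3 and 78.6 CPM in Th17, and 82.3 and 125 CPM in Th1, which overlapped throughout. That gene was named after its values were seen.

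Of 18 textbook NF-κB target genes, edgeR called 5 higher and 0 lower in Th17 and 4 higher and 1 lower in Th1 against Naive, and 2 were higher and 5 lower in Th1 than in Th17. DESeq2 called 8 higher and 1 lower in each comparison with Naive, and 6 higher and 5 lower in Th1 than in Th17. The shares of all genes called by each tool are those given with the 6 lists above. *Il2ra*, which encodes the alpha chain of the IL-2 receptor, had 42.3 and 71.8 CPM in Naive, 493 and 302 CPM in Th17, and 1035 and 831 CPM in Th1. It rose by 2.80 (SE 0.38, edgeR adjusted p = 0.00146) in Th17 and by 4.03 (SE 0.41, edgeR adjusted p = 0.000256) in Th1. *Csf2*, which encodes the cytokine GM-CSF, had 0.279 and 0.0990 CPM in Naive, the latter from 2 counts, 30.4 and 24.5 CPM in Th17, and 20.5 and 32.5 CPM in Th1. These are log2 fold changes of 6.94 and 6.89 against Naive, with no separation of Th17 and Th1.

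Other targets separated Th17 from Th1. *Il2*, which encodes the T cell growth factor IL-2, had 0.572 and 0.545 CPM in Naive, 5.52 and 4.92 CPM in Th17, and 0.0928 and 0.190 CPM in Th1, with log2 fold changes of 3.22 in Th17 against Naive and -5.38 in Th1 against Th17. The Th1 values rest on few counts, down to 3 in replicate 2. *Cd83*, a surface marker of activated lymphocytes and dendritic cells, had 8.76 and 7.97 CPM in Naive, 5.31 and 6.28 CPM in Th17, and 0.247 and 0.506 CPM in Th1, and was the 1 target called lower in Th1 than in Naive (-4.61, SE 0.53, edgeR adjusted p = 0.000503). *Bcl2a1d*, an anti-apoptotic gene that is also expressed by neutrophils, had 8.65 and 8.07 CPM in Naive, 30.7 and 54.5 CPM in Th17, and 4.16 and 1.90 CPM in Th1. Its log2 fold change was 2.35 in Th17 against Naive and -3.77 in Th1 against Th17. It has near-identical copies, among which counts may have been split, and the part of the neutrophil genes that were high in the same Th17 libraries was not tested.

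The genes whose profiles over the 6 libraries were most like those of the 3 most variable of the 10 genes were named by the root mean square difference of centred log2 CPM. For *Bcl3* they were *Rundc3a* (0.12), *Gm20098* (0.17) and *Dennd2a* (0.22). Of these, *Rundc3a* was well counted, with 8.92 and 11.5 CPM in Naive, 63.4 and 32.5 CPM in Th17, and 33.3 and 69.8 CPM in Th1, while the other 2 stayed below 3 CPM. For *Nfkbid* they were *Tnfsf11* (0.16), which encodes the TNF family cytokine RANKL, *Hnrnpa1* (0.20) and *Ddx11* (0.20). *Tnfsf11* had 16.1 and 19.1 CPM in Naive, 9.79 and 8.71 CPM in Th17, and 8.66 and 3.98 CPM in Th1, with both Naive libraries highest and Th1 replicate 2 lowest, as for *Nfkbid*. *Hnrnpa1* has many processed copies in the genome, so its counts are uncertain. For *Nfkbia* they were *3830403N18Rik* (0.13), *Ccdc126* (0.15) and *Tmem38a* (0.15), of which *Ccdc126* had 11.2 and 13.2 CPM in Naive, 23.2 and 33.3 CPM in Th17, and 10.8 and 24.7 CPM in Th1.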

How the data were processed

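Polyadenylated RNA of 2 Naive, 2 Th17 and 2 Th1 libraries was made into cDNA by Smart-seq2 and sequenced. The authors deposited whole-number raw counts per gene for each library. The submitters' processing notes name HISAT2 2.2.1, HTSeq 0.13.5 and mm10, beside StringTie 2.1.7 and DESeq2 1.34.0. The study's methods give default HTSeq settings and removal of duplicates, whereas its code counts reverse-stranded reads with no such step, and how these counts were made was not settled. Whether these counts keep reads of opposite-strand genes apart is therefore not known, and overlaps with such genes remain uncertain.

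Differences were tested with edgeR 4.0.16, which calls limma 3.58.1, under R 4.3.3. Of 24223 genes, 13607 passed filterByExpr and were fitted on all 6 libraries by glmQLFit and glmQLFTest with TMM factors from 0.862 to 1.09 and cell type as the only term. P-values were adjusted by Benjamini-Hochberg over all genes tested, and a call needed an adjusted p-value under 0.01 with an absolute log2 fold change above 1. Standard errors are the fold change divided by the square root of F, and 95% intervals are normal intervals from them. P-values rest on the spread between 2 replicates a group, estimated over all 6 libraries together. The normal intervals can be narrower than this test allows. For *Relb* in Th1 against Naive the interval, 0.061 to 1.09, excludes 0, while the unadjusted edgeR p was 0.0536. Log2 CPM used a prior count of 2. Alternatives were DESeq2 1.42.0, other scalings, filters and thresholds, thinning to 17742158 counts, a replicate block, and leaving out each library. Replicate numbers were not taken to pair the libraries. The scripts were tested on simulated counts of 13607 genes with known changes in Th17 against Naive. Of 100 genes changed by 3 on the log2 scale, edgeR called 78 and DESeq2 87. Of 100 changed by 1.5, edgeR called 19 and DESeq2 44. False calls numbered 1 by edgeR and 26 by DESeq2. A gene that was not called may therefore still have changed.

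Gene positions and lengths are from GENCODE vM21 on GRCm38, the genome of mm10, and promoters from RefSeq. All 10 genes are named, then up to 5 called genes per pathway list by fold change and the 3 most alike genes for the 3 most variable members. The genes, lists and ratios were chosen with earlier results of these data known. Counting intervals and limits would cover counting error only and are not given for groups of replicates. ATAC-Seq and Hi-C data were not analysed here.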

Additional observations from a re-analysis of the deposited data

Results flagged for a closer look

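*Nfkb1* lay on opposite sides of Naive in the 2 helper cell types. Both Th17 libraries (214 and 174 CPM) lay below and both Th1 libraries (344 and 418.5 CPM) above the Naive libraries (241 and 295 CPM). Neither difference from Naive passed the edgeR test, with a log2 fold change of -0.47 (adjusted p = 0.264) in Th17 and of 0.51 (adjusted p = 0.26) in Th1. The difference between Th1 and Th17 was 0.97 (adjusted p = 0.0424), short of the threshold of 0.01.

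Of the 57 pathway genes, edgeR called 5 higher and 6 lower in Th1 than in Th17, so that their change from Naive differed. Among all genes tested, 2.70% were called higher and 2.83% lower. The 7 called pathway genes that are named by the rule for named genes follow. *Tnfrsf18*, *Tnfrsf1b* and *Tnfrsf4* were higher in Th1 than in Th17 by 1.79, 1.73 and 1.69 on the log2 scale. *Il2*, *Cd83*, *Tnip3* and *Bcl2a1d* were lower, with log2 fold changes of -5.38, -4.07, -3.96 and -3.77.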

How the results depend on the processing

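Of 510 alternative values for the 10 genes, 475 kept their direction and their side of the threshold. Only *Bcl3* was called in the main fit, in both comparisons with Naive, so most of these values kept their side by staying uncalled. The fold test and the looser limit on the adjusted p reused the main fold changes, so they could not turn a direction. A call was lost in 7 values, all of them for *Bcl3* against Naive. Fold changes near 0 turned: *Bcl3* in Th1 against Th17 was -0.24 with library size alone, -0.078 with at least 10 counts in every library, -0.073 and -0.074 with a replicate block in edgeR and DESeq2 and -0.019 after thinning, and *Nfkbie* there was -0.038 with library size alone, a scaling that shifted the median of all genes by -0.21 in that comparison and by -0.25 in Th1 against Naive. Without one library at a time, the range was -0.59 to 0.43 for *Bcl3*, -0.221 to 0.01 for *Relb* and -1.0 to 0.22 for *Nfkbid* in Th1 against Th17, -0.66 to 0.48 for *Nfkbiz* in Th17 against Naive, and -0.005 to 1.16 for *Nfkbia* in Th1 against Naive. The causes were not tested.

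The counts of calls, among the 10 genes and then among the 57 pathway genes, moved as follows. In Th17 against Naive, DESeq2, no filter, the edgeR and DESeq2 replicate block, the 4 libraries alone and an adjusted p of 0.05 each gave 2 members higher, and no filter also 1 lower. Over all 13607 genes tested, calls higher in that comparison rose too, from 545 in the main fit to 1047 by DESeq2. They numbered 706 and 935 with the edgeR and DESeq2 block, 725 with the 4 libraries alone and 1223 at 0.05. Without a filter, 1203 of 17846 genes were called higher and 951 lower. The test against a fold of 2 gave 0 members in both comparisons with Naive, and library size alone gave 0 in Th1. Of all genes, the fold test called 334 higher in Th17 and 334 higher in Th1 against Naive. Library size alone called 399 higher in Th1. In Th1 against Naive, DESeq2 and no filter gave 2 members higher, and these, the DESeq2 block and 0.05 gave 1 lower. Of all genes there, the main fit called 631 higher and 383 lower, DESeq2 1110 and 807, and no filter 1287 and 972. The DESeq2 block called 723 of all genes lower, and 976 were lower at 0.05. Pathway genes called higher numbered 11, 13 and 12 by DESeq2, 12, 12 and 11 without a filter, 11, 13 and 8 with the DESeq2 block and 12, 13 and 12 at 0.05, for Th17 against Naive, Th1 against Naive and Th1 against Th17. In Th1 against Th17, the main fit called 367 of all genes higher and DESeq2 921. No filter gave 1188 there, the DESeq2 block 850 and an adjusted p of 0.05 gave 1036. Those 4 settings gave 1 pathway gene lower in Th17, and no filter and 0.05 gave 2 lower in Th1, against Naive. With at least 10 counts in every library, 4 pathway genes were higher in Th17 and 0 lower in Th1 against Naive, and 3 lower in Th1 than in Th17. Of the 10943 genes tested there, these calls numbered 250, 217 and 159. The fold test gave 3 pathway genes higher in Th17 against Naive and 0 in Th1 against Th17, and library size alone 2 there. Of all genes, the fold test called 154 higher in Th1 than in Th17, and library size alone 202. Leaving out a library gave 0 to 2 members higher in Th17, 0 to 1 higher and 0 to 1 lower in Th1, 3 to 9 pathway genes higher in Th17 against Naive, and 0 to 6 higher and 3 to 6 lower in Th1 against Th17.

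Same-numbered libraries did not deviate together (correlations of -0.23, 0.17 and 0.08), so the numbers were not used as pairs. With the edgeR replicate block, *Nfkbia* in Th17 against Naive was called (1.49, adjusted p = 0.00601) and no other of the 10 genes changed its call in edgeR. With the DESeq2 block, *Nfkb2* in Th1 against Naive was 0.999 (adjusted p = 0.0203), a call lost against DESeq2 without it.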
